A study of Caenorhabditis elegans with 95 samples.

Results

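At 2 h after lights on, whole adult C. elegans were compared with animals late in the dark phase of the same light/dark (LD) day. The comparison held 6 of the 95 arrays of the series. They were the 3 taken 2 h into the light (LD hour 2) and the 3 taken 10 h into the dark (LD hour 22), 1 of each from the independent time series 3, 4 and 6. All 6 came from Bristol N2 wild-type animals grown on E. coli HB101 at 18°C under 12 h of cold white light (500 to 1000 lux) and 12 h of darkness. At the L4 stage the animals were moved to 25 µM FUDR, an inhibitor of DNA synthesis that blocks progeny production.

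Other arrays served as comparisons at the same clock hours. DD arrays came from animals moved into constant darkness after LD entrainment, sampled at hours 26 and 46, in series 2, 4 and 6. Control arrays came from never-entrained animals kept in complete darkness, in series 4 and 6. WC arrays came from animals in darkness under a 25°C warm phase and a 15°C cold phase.

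According to the labels, animals were held as 2 populations under opposing cycles in separate incubators, and the labels do not say which population gave which array. Hour 22 may therefore have been taken 4 h before hour 2, across lights on, or 20 h after hour 2 of the same day. Other gaps are possible if the hours came from different populations. Light, age and population cannot be told apart in this comparison. Whole animals were extracted, so fewer cells of a type and less RNA per cell cannot be told apart either.

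C. elegans has no eyes. It senses bright, short-wavelength light through photoreceptor neurons that use LITE-1, a relative of insect gustatory receptors, and cyclic GMP signalling, and it moves away from such light. Its genome also holds relatives of insect and mammalian clock genes, among them lin-42, the period homolog, which is best known for timing larval development and moulting.

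Values were standardised scores. Each score gives the log2 expression of a probe set relative to the mean of its time series. Each array was then set to mean 0 and variance 1, so that 1 unit is 1 SD of that array. No transcript level or fold change can be read from a score, and a higher score is higher relative to the rest of its own array. Levels of tissue markers could not be checked for the same reason. Of 22548 probe sets, 6559 lay at the bulk value of the arrays throughout the LD day and were left out. This filter read the same LD arrays as the test, so it favoured probe sets that vary over the LD day. It is therefore not independent of the test, and the counts and shares below depend on it. The remaining 15989 were tested with limma on the 18 LD arrays, with hour and series as terms, with Benjamini-Hochberg adjustment over all 15989.

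Across lights on, 5 of 15989 probe sets (0.0313%) passed an adjusted p of 0.05, 4 higher and 1 lower at hour 2. At an unadjusted p of 0.05, 1745 probe sets (10.9%) were higher and 1979 (12.4%) were lower, and 373 had an adjusted p under 0.1. The median difference over all tested probe sets was -0.05. In 2837 probe sets (17.7%) hour 2 was the higher in 3 of 3 series, and in 4320 (27%) it was the higher in 0 of 3. The 3 hour-2 scores lay wholly above the 3 hour-22 scores in 1950 probe sets (12.2%) and wholly below them in 2391 (15%). The steps of single series correlated across the 15989 probe sets at r = 0.33 for series 3 and 4, 0.27 for series 3 and 6, and 0.23 for series 4 and 6, given as a description across probe sets of the same arrays.

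The 5 calls were lost when the block for series was dropped (0 calls, adjusted p of these 5 between 0.0925 and 0.094) and when any one series was left out. Leaving out series 3, 4 or 6 gave 1, 0 and 0 calls, and none of these was among the 5. The 6 arrays of hours 2 and 22 alone also gave 0 calls (adjusted p of these 5 = 0.352). So did the fit with no filter on low scores (0.0552 to 0.0638) and that without the arrays labelled as 2 biological replicates (0.0812). With no filter, 1708 of 22548 probe sets were higher and 2178 lower at the unadjusted threshold. All 5 kept their direction in each of these fits. An exact sign-flip test over 3 series cannot give a two-sided p below 0.25, so no single gene could pass such a test.

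The largest rise was that of spig-16, read by a probe set that may also match related transcripts. Its scores at hour 2 were 7.43, 11.71 and 7.26 in series 3, 4 and 6, against -1.81, 0.53 and 0.85 at hour 22. The groups did not overlap, and the difference was 8.94 (SE 1.26, limma adjusted p = 0.0471).

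The gene fmo-1, which encodes a flavin-containing monooxygenase, an enzyme that oxidises nitrogen- and sulphur-containing compounds, rose by 5.62 (SE 0.67, limma adjusted p = 0.0238). Scores were 2.66, 2.30 and 1.79 at hour 2, against -3.71, -4.25 and -2.16 at hour 22. The rise came from only 1 of its probe sets, which may also match related transcripts and gives the fmo-1 values in later paragraphs. The other fmo-1 probe set gave a difference of 0.69 (SE 0.35, limma adjusted p = 0.253) and was higher at hour 2 in 2 of 3 series.

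ZK899.1 scored 1.42, 1.44 and 1.32 at hour 2, against -2.09, -3.16 and -1.77 at hour 22, and rose by 3.73 (SE 0.50, limma adjusted p = 0.0381). Its 3 hour-2 arrays were the closest to each other among the 5 genes. C51E3.6 scored 1.76, 0.72 and 2.08 at hour 2, against -1.66, -2.91 and -0.21 at hour 22, a rise of 3.11 (SE 0.37, limma adjusted p = 0.0238). Series 4 gave the lowest C51E3.6 score at both hours.

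B0212.3 was the only probe set lower at hour 2 that passed an adjusted p of 0.05. It scored -2.12, -2.91 and -3.99 at hour 2, against 1.64, 2.27 and 0.80 at hour 22, without overlap. The difference was -4.58 (SE 0.60, limma adjusted p = 0.0378).

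**Figure D1:**
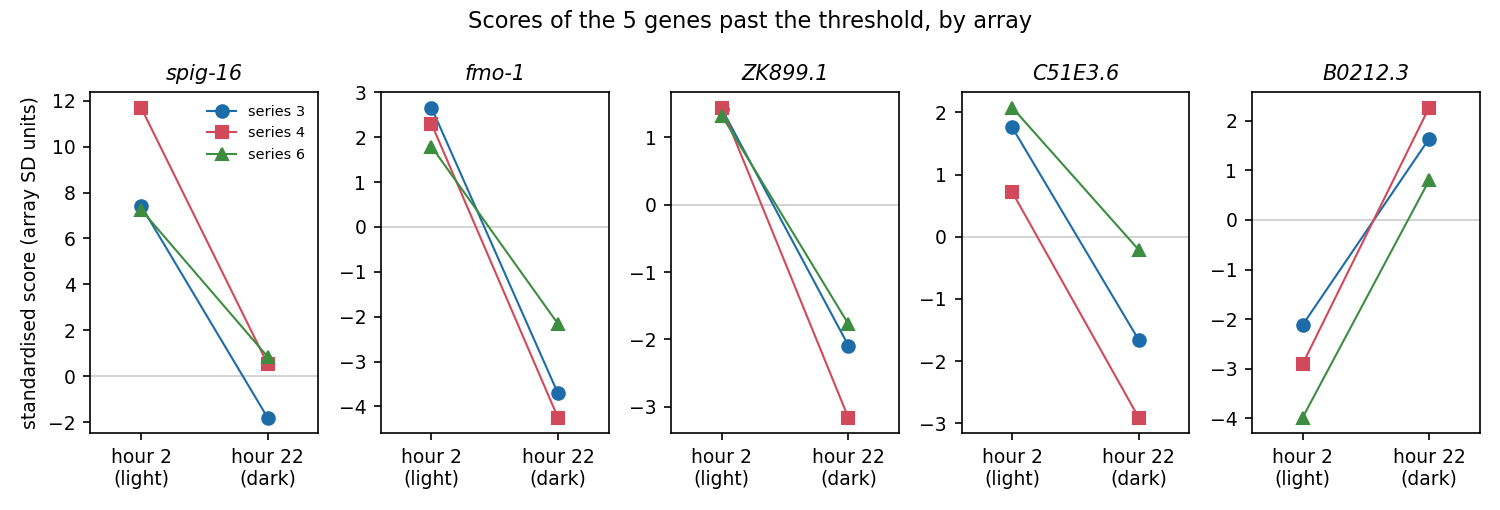
Standardised scores (y axis, array SD units, scaled per panel) of the 5 genes past the threshold at LD hour 2 (left) and LD hour 22 (right), with 1 line per time series. In 4 panels every hour-2 point lies above every hour-22 point, and for B0212.3 the order is the opposite.

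Behind these calls stood a group of genes whose hours also did not overlap but that missed the threshold. Among the 8 with the higher score at hour 2, cysl-1 encodes a cysteine synthase-like protein that signals hydrogen sulphide to the hypoxia pathway. Its scores were 0.56, 0.25 and 0.67 at hour 2, against -0.74, -0.86 and -0.94 at hour 22 (difference 1.34, SE 0.21, limma adjusted p = 0.0527). The mitochondrial carrier gene sfxn-5, a sideroflexin, scored 0.89, 0.91 and 1.03 at hour 2, against -0.90, -1.01 and -0.41 at hour 22 (difference 1.71, SE 0.26, limma adjusted p = 0.0527). Both genes had tight groups at hour 2. The FMRFamide-like neuropeptide gene flp-10 scored 1.39, 2.09 and 1.68 at hour 2, against -1.10, -2.32 and -0.68 at hour 22 (difference 3.09, SE 0.51, limma adjusted p = 0.0632). The acyltransferase homolog oac-6 scored 1.84, 2.7 and 1.46 at hour 2, against -1.64, 0.86 and -0.08 at hour 22. The remaining 4, B0379.1, C46G7.2, C55A6.7 and Y106G6D.6, had differences between 1.55 and 3.22.

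Among the 11 with the lower score at hour 2, top-1 encodes DNA topoisomerase I, which relaxes supercoiled DNA. Both of its probe sets were lower, by 2.03 (SE 0.31, limma adjusted p = 0.0527) and 1.21 (SE 0.22, limma adjusted p = 0.0657). Its first probe set scored -1.68, -2.39 and -2.58 at hour 2, against 0.45, -0.89 and -0.12 at hour 22. The SET-domain gene set-12 scored -2.01, -1.89 and -2.96 at hour 2, against 1.48, 1.52 and -0.45 at hour 22. SET domains are found in lysine methyltransferases. The SUMO protease gene ulp-1 scored -1.21, -0.83 and -1.26 at hour 2, against 0.85, 1.44 and 0.55 at hour 22. The RNA interference gene rde-2 scored -0.90, -0.76 and -1.66 at hour 2, against 0.41, 0.70 and 0.98 at hour 22. None of these 3 passed, with adjusted p between 0.0632 and 0.0657.

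The inward-rectifier potassium channel gene irk-2 stood out by its shape over the day. It scored -0.25, 0.00 and -0.04 at hour 2, against 0.77, 0.98 and 1.53 at hour 22 (difference -1.19, SE 0.20, limma adjusted p = 0.0632). Its means at hours 6, 10, 14 and 18 were 0.11, -0.10, -0.09 and -0.05, so that hour 22 alone was apart. K03A11.1 had the largest difference of those lower at hour 2. Its scores were -4.98, -4.59 and -6.64 at hour 2, against 1.22, -1.96 and 0.69 at hour 22 (difference -5.39, SE 0.99, limma adjusted p = 0.0657). Every probe set of rlbp-1, a gene named for retinaldehyde-binding proteins, was lower at hour 2, with differences of -1.47, -1.69 and -2.08. The remaining genes, Y75D11A.3, ZK177.1, C17E7.4 and C45H4.14, had differences between -3.20 and -1.53.

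Gene lists described the animals more broadly. For lists, each gene was read by 1 probe set, which left 12088 genes with a median difference of -0.04. No member of any list below passed an adjusted p of 0.05. Counts are therefore given at an unadjusted p of 0.05, which 11.4% of all genes met as higher and 11.9% as lower. Groups that did not overlap held hour 2 above in 12.7% of all genes and below in 14.8%.

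Muscle genes had the highest median of the lists, 1.24, with medians of 0.55, 1.57 and 1.17 in series 3, 4 and 6. Of 48 genes for sarcomere proteins, 26 met the unadjusted threshold as higher and 1 as lower, and hour 2 lay wholly above hour 22 in 25 (52.1%). The count as higher was 29, 12 and 12 without series 3, 4 and 6. Paramyosin, the core protein of invertebrate thick filaments (unc-15), scored 1.16, 1.85 and 1.38 at hour 2, against -0.07, -0.65 and -0.38 at hour 22 (difference 1.83, SE 0.47, limma adjusted p = 0.0970). The body-wall troponin C gene pat-10 scored 0.56, 0.83 and 0.53 at hour 2, against -0.97, -0.38 and 0.08 at hour 22. The myosin light chain gene mlc-1 and the calponin gene cpn-3 had differences of 1.37 and 1.41. All 4 genes were higher at hour 2 in 3 of 3 series.

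Transthyretin-related genes, a large nematode family of secreted proteins, had a median of 1.00. Of 33 genes, 21 were higher at the unadjusted threshold and 0 were lower, and 19 (57.6%) did not overlap. The count was 11, 18 and 10 without series 3, 4 and 6. The member with the lowest p, ttr-27, scored 2.96, 0.57 and -0.11 at hour 2, against -3.49, -3.79 and -1.65 at hour 22 (difference 4.11, SE 0.82, limma adjusted p = 0.0711). In ttr-24 the difference was smaller, at 1.12, but the series were closer.

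The vacuolar ATPase, the proton pump of lysosomes and of the apical membranes of epithelia, had similar medians in the 3 series. Hour 2 lay wholly above hour 22 in 13 of 19 subunit genes (68.4%) and wholly below in 0. The median difference over the subunits was 0.64, with 0.69, 0.58 and 0.48 in the 3 series. At the unadjusted threshold 8 were higher, and 7, 4 and 5 were without series 3, 4 and 6. The membrane subunit vha-5 scored 0.51, 1.23 and 1.32 at hour 2, against -0.50, -0.76 and -0.26 at hour 22 (difference 1.52, SE 0.26, limma adjusted p = 0.065). The intestinal subunit vha-6 had a difference of 1.34, and vha-15 and vha-10 had 0.84 and 0.64.

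Neuropeptide genes had a median of 0.82 but differed between series, with medians of -0.04, 1.15 and 0.24, and had 0.5 without series 4. Of 77 genes, 20 were higher at the unadjusted threshold and 3 lower, and 20, 11 and 17 were higher without series 3, 4 and 6. Besides flp-10, the gene nlp-7 scored 1.88, 1.35 and 1.47 at hour 2, against -2.42, 0.00 and -0.41 at hour 22. The insulin-like peptide gene ins-3 scored 1.65, 0.81 and 1.35 at hour 2, against -1.27, -0.06 and -1.43 at hour 22. In these genes the hour-2 arrays lay close together and the spread was at hour 22. The opposite held for nlp-20, which scored 0.31, 2.26 and 1.21 at hour 2, against -0.99, -0.74 and -0.49 at hour 22.

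Genes for detoxifying enzymes leaned to the higher side at hour 2. Of 41 glutathione S-transferases, which join glutathione to reactive compounds, 14 were higher at the unadjusted threshold and 0 lower (median 0.94), and 10, 15 and 8 were higher without series 3, 4 and 6. The enzyme gene gst-20 scored 0.83, 2.07 and 1.32 at hour 2, against -0.82, -0.25 and -0.59 at hour 22 (difference 1.96, SE 0.41, limma adjusted p = 0.0762). Of 54 UDP-glucuronosyltransferases 10 were higher and 1 lower, at a median of 0.59. Without series 3, 6 were higher and the median was 0.16, and without series 6 the median was 1.02. Among them ugt-18 scored 1.70, 1.31 and 3.52 at hour 2, against -1.52, -3.14 and -1.06 at hour 22 (difference 4.08, SE 0.69, limma adjusted p = 0.0632). Of 56 cytochrome P450 genes 10 were higher and 3 lower, and without series 6 only 1 was higher. The 3 lower genes were cyp-31A2, cyp-31A3 and cyp-31A5, with differences of -1.02, -1.39 and -0.65. Of these, cyp-31A2 and cyp-31A3 are required for eggshell formation, and they are close copies whose probe sets may share signal. Antioxidant enzymes had a median of 0.24, which was 0.11 without any 1 of the series. Without series 3, 4 and 6 the higher count was 3, 3 and 2. Of 28 genes 5 were higher, among them the glutathione peroxidase genes gpx-7 (difference 2.03) and gpx-5 (1.16).

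Lists of intestinal, immune and fat metabolism genes also held more genes on the higher side. Of 47 genes for intestinal proteases, phosphatases and an esterase, 12 were higher and 1 lower, at a median of 0.91. Without series 3 there were 4 higher, at a median of 0.5. The acid phosphatase gene acp-1 scored 0.52, 1.63 and 0.81 at hour 2, against -1.57, -1.38 and 0.28 at hour 22. Of 195 immune effector genes 37 were higher and 10 lower, and without series 3 or 6 the higher count was 19. The gene dod-22, known as a target downstream of the insulin-pathway factor DAF-16, scored 1.17, 1.68 and -0.32 at hour 2, against -3.31, -3.41 and -2.55 at hour 22 (difference 3.93, SE 0.73, limma adjusted p = 0.0657). The C-type lectin gene clec-47 had a difference of 2.28 and the caenacin gene cnc-3 one of 2.01. Fatty acid breakdown genes were higher in 17 of 67 and lower in 2, but higher in 5, 11 and 7 without series 3, 4 and 6. Of these, acox-1.6, an acyl-CoA oxidase gene, scored 2.28, 4.01 and 2.04 at hour 2, against -1.99, -1.12 and 0.63 at hour 22.

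Among transcription factors, 34 of 173 nuclear hormone receptor genes were higher and 8 lower, with 20, 20 and 18 higher without series 3, 4 and 6. The receptor gene nhr-98 scored 1.19, 0.57 and 1.13 at hour 2, against -0.38, -0.81 and -1.36 at hour 22. A larger difference was that of nhr-133, 5.03 (SE 1.26, limma adjusted p = 0.0966), with 3.29, 1.98 and 2.31 at hour 2, against -2.72, -2.50 and -2.27 at hour 22. The early embryonic receptor gene nhr-2 was lower, with -3.16, -3.26 and -2.43 at hour 2, against 0.62, -0.72 and -0.45 at hour 22. Of 29 stress and fast-response factors, 5 were higher and 0 lower, at a median of 0.73. The higher count was 3, 2 and 1 without series 3, 4 and 6. Without series 3 the median was 0.37, and without series 6 it was 0.30 with 2 genes lower. Apart from transcription factors, cuticle collagens were higher in 8 of 127 (6.3%), below the 11.4% of all genes, and lower in 0. The higher count was 14, 3 and 14 without series 3, 4 and 6. The series medians of the collagens were -0.04, 0.76 and 0.09.

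Lists of the germline and of dividing cells had medians below 0. Of 78 genes for the cell cycle and DNA replication, 44 (56.4%) were lower at the unadjusted threshold and 0 were higher. The median was -0.74, with -0.92, -0.83 and -0.54 in series 3, 4 and 6. Without series 3, 4 and 6 the count was 18, 17 and 26. The kinetochore gene knl-1 scored -0.50, -0.71 and -0.86 at hour 2, against 0.59, 0.33 and -0.22 at hour 22 (difference -0.93, SE 0.23, limma adjusted p = 0.0957). The CDC25 phosphatase gene cdc-25.3, the B-type cyclin gene cyb-2.1 and the replicative helicase gene mcm-2 had differences of -1.79, -0.98 and -0.96. All 4 of these genes were lower in 3 of 3 series.

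DNA repair genes had a median of -1.07, with -1.14, -0.88 and -0.62 in the 3 series. Of 36 genes 21 were lower and 0 higher, and 12, 13 and 7 were lower without series 3, 4 and 6. The double-strand break repair gene rad-50 scored -1.31, -0.67 and -2.01 at hour 2, against 0.87, 0.30 and 0.74 at hour 22 (difference -1.97, SE 0.53, limma adjusted p = 0.102). The BRCA1 ortholog brc-1 scored -0.72, -0.15 and -1.40 at hour 2, against 1.03, 0.87 and 0.19 at hour 22. The BRCA2 ortholog brc-2 had a difference of -1.79. Both genes act in homologous recombination, which the germline uses in meiosis.

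Oocyte and eggshell genes separated most often. Hour 2 lay wholly below hour 22 in 33 of 42 genes (78.6%), at a median of -0.87. At the unadjusted threshold 28 were lower and 1 higher, and 16, 12 and 27 were lower without series 3, 4 and 6. The oocyte RNA-binding protein gene puf-5 scored -0.32, -0.78 and -0.18 at hour 2, against 0.49, 0.43 and 0.39 at hour 22 (difference -0.86, SE 0.23, limma adjusted p = 0.102). The eggshell proteoglycan gene cpg-2 scored -0.22, -0.50 and -0.08 at hour 2, against 0.37, 0.55 and 0.35 at hour 22. Both had narrow groups at both hours. The exception was cpg-9, with 2.05, 2.81 and 1.06 at hour 2, against -1.93, -0.63 and 0.18 at hour 22.

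The medians of the lists on each array show the 2 sides together. The muscle list stood at 0.54, 1.12 and 0.77 at hour 2, against -0.09, -0.27 and -0.44 at hour 22. The oocyte list stood at -0.32, -0.48 and -0.03 at hour 2, against 0.66, 0.65 and 0.28 at hour 22. Neither list overlapped between hours. Since each array was set to mean 0, a lower standing of one set of genes comes with a higher standing of others. The part of the germline lists in the other differences was not tested.

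Other reproductive lists were less even. Of 51 zygotic embryo genes 8 were lower and 4 higher, at a median of -0.80, with -0.06, -0.17 and -0.67 in the 3 series. The lower count was 11, 4 and 1 without series 3, 4 and 6, and the median was -0.10 without series 6. The T-box gene tbx-9 scored -0.84, -1.02 and -0.93 at hour 2, against 0.32, 0.89 and 0.98 at hour 22, and pes-8 ran the other way with a difference of 3.03. Sperm genes had a median of -1.84, but the series disagreed, with -3.59, 0.46 and -1.50. The median was -0.37 without series 3, and -0.13 over the 18 genes read by unique probe sets. Only 3 of 58 sperm genes were lower at the unadjusted threshold, and 14 were without series 4. The major sperm protein gene msp-64, one of a family of near-identical genes, scored -3.20, 2.79 and -0.26 at hour 2, against 8.48, 2.36 and 7.04 at hour 22. Its groups overlapped through series 4.

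Of 41 heat shock and chaperone genes, 13 were lower and 2 higher, at a median of -0.37, but only 1 was lower without series 3. The 4 members of lowest p were all DnaJ-type co-chaperone genes. Among them dnj-22 scored -3.25, -0.42 and -2.61 at hour 2, against 0.11, 1.10 and 1.73 at hour 22, and dnj-9 had a difference of -0.99.

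**Figure D2:**
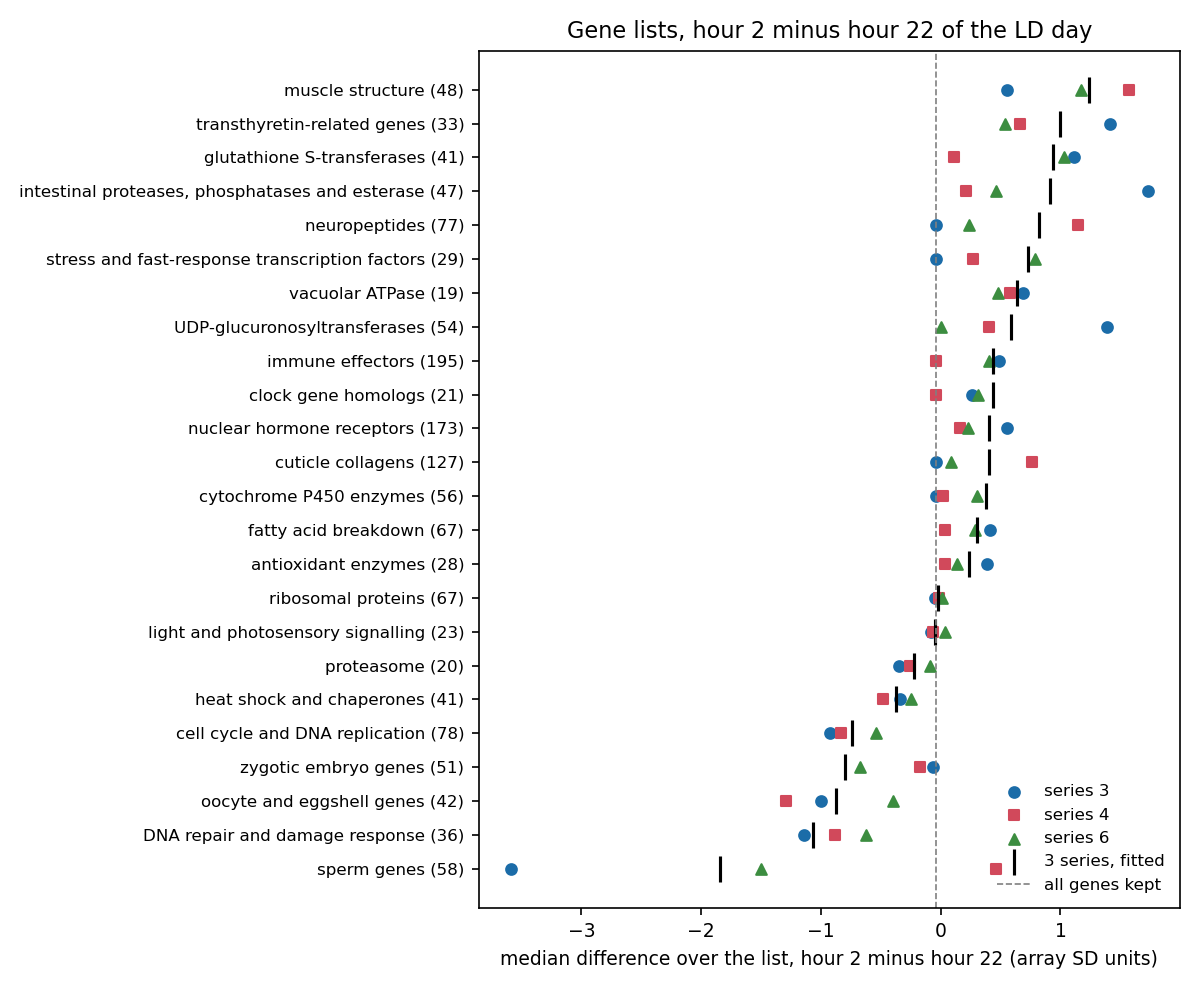
Median difference of each gene list (x axis, hour 2 minus hour 22, array SD units), with the number of genes in parentheses, by time series (coloured points) and from the fit over 3 series (black bars). The dashed line is the median of all 12088 genes, -0.04. Muscle genes are at the top (1.24) and sperm genes at the bottom (-1.84, but -0.37 without series 3), where series 4 lies on the other side of 0.

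No gene for light sensing met even the unadjusted threshold. Of 57 genes for photosensory signalling, 23 passed the filter on the bulk value, and 0 were higher and 0 lower at the unadjusted threshold. The median was -0.05. The cyclic GMP-dependent kinase gene pkg-2 came nearest, with 1.73, 1.43 and 0.74 at hour 2, against -0.13, 0.12 and -0.62 at hour 22 (difference 1.51, SE 0.75, limma adjusted p = 0.248). The receptor relative gur-4 and the guanylyl cyclase genes gcy-19 and gcy-27 had differences between -0.78 and -0.35, and the groups overlapped in all 3.

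Clock gene homologs were spread to both sides, with 4 of 21 higher and 3 lower. Without series 3, 4 and 6 the higher count was 3, 1 and 0 and the lower count 2, 0 and 2. The period homolog lin-42 scored -0.23, -1.32 and -0.11 at hour 2, against 3.41, 4.50 and 0.33 at hour 22 (difference -3.30, SE 1.04, limma adjusted p = 0.123). Its groups did not overlap, but series 6 separated them by far less than series 3 and 4. The paper lists another lin-42 probe set, whose difference is not given here. The timeless homolog tim-1, named after its values were seen, had a difference of -1.58 (SE 0.64, limma adjusted p = 0.173). The bZIP gene zip-10 scored 1.86, 0.77 and 1.31 at hour 2, against -1.06, -1.60 and -1.46 at hour 22 (difference 2.69, SE 0.95, limma adjusted p = 0.141), and zip-2 had a difference of 1.55.

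Over the LD day, the pair of hours 2 and 22 had the most probe sets past the unadjusted threshold of the 6 neighbouring pairs on the clock. If hour 22 was taken 20 h after hour 2, this pair holds the 2 ends of the sampled day, and the other pairs are 4 h apart. At the unadjusted threshold 23.3% of probe sets differed between hours 2 and 22. The shares were 1.06% for hour 6 against 2, 2.43% for hour 10 against 6, 4.37% for hour 14 against 10, 5.44% for hour 18 against 14 and 2.58% for hour 22 against 18. None of these 5 pairs gave a call at an adjusted p of 0.05 in limma. Neighbouring pairs share arrays and differ in whether light changed between them. Hour 10 against hour 22, which shares the hour-22 arrays, gave 18 calls (0.113%) and 16.8% at the unadjusted threshold.

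**Figure D3:**
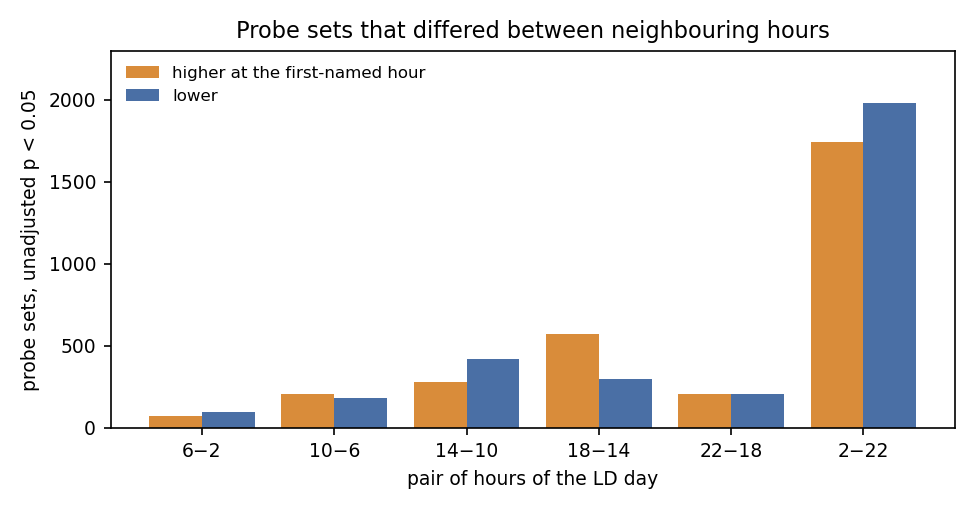
Number of probe sets with an unadjusted p under 0.05 (y axis) for each pair of neighbouring hours of the LD day (x axis), split into higher and lower at the first-named hour. The pair 2 and 22, at the right, which may have been sampled 20 h apart, has 1745 higher and 1979 lower, and the pair 14 and 10, across lights off, has 282 and 417.

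The 1745 probe sets higher at hour 2 had median scores of 1.02, 0.76, 0.71, 0.11, -0.35 and -0.63 at hours 2, 6, 10, 14, 18 and 22. The 1979 that were lower had -0.70, -0.46, -0.36, -0.13, 0.29 and 0.46. Hours 2 and 22 chose these sets and are given as a description. The medians of the hours between them ran in 1 direction through the day. In both sets they changed less from hour 6 to hour 10, in the light, than from 10 to 14 or from 14 to 18.

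Single genes departed from this course. The mean score of spig-16 was 8.80 at hour 2 and 3.04, 3.00, 1.54, 0.55 and -0.14 at hours 6, 10, 14, 18 and 22. Hour 2 had the highest mean, but the ranges of mean ± SD overlapped between hours 2 and 10 (SD 2.52 and 3.85, n = 3 each). In fmo-1 the means were 2.25 at hour 2 and -0.60, 0.34, 0.51, -1.24 and -3.37 at the later hours. Hour 2 had the highest mean and hour 22 the lowest. B0212.3 ran evenly, at -3.01, -2.35, -1.43, -0.50, 1.05 and 1.57.

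**Figure D4:**
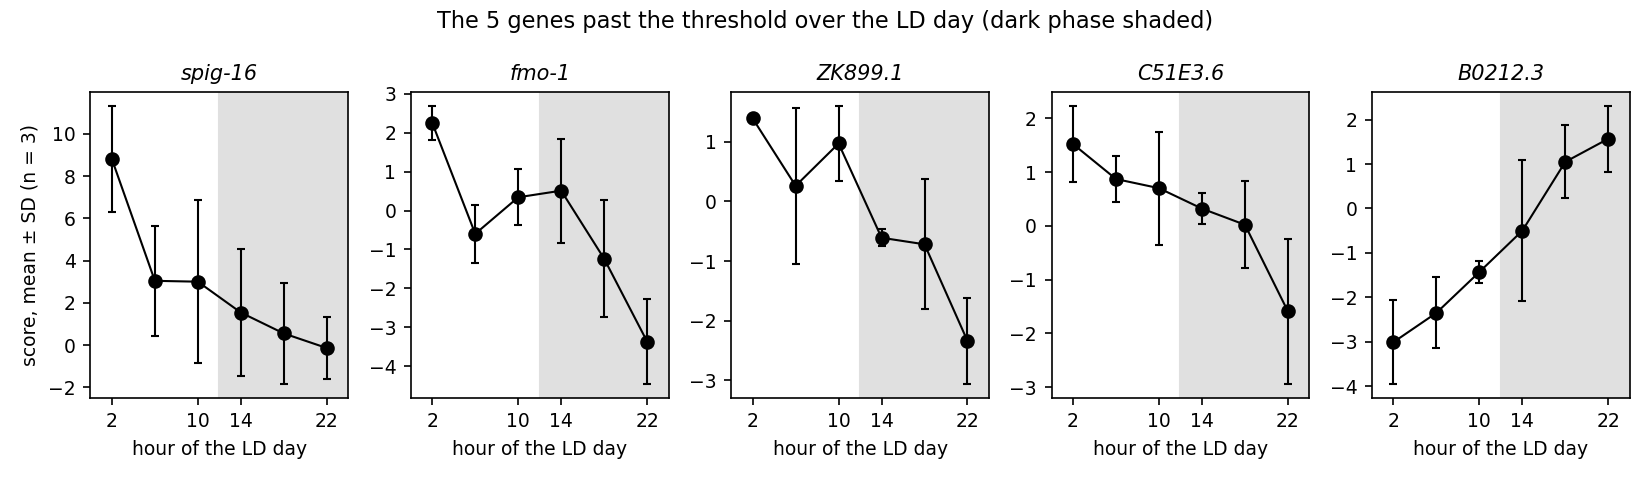
Mean score (y axis, ± SD, n = 3 arrays, scaled per panel) of the 5 genes past the threshold at the 6 hours of the LD day (x axis, dark phase shaded). In spig-16 the mean of 8.80 at hour 2 is above all others, and B0212.3 runs evenly to 1.57 at hour 22.

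The same clock hours were also read in constant darkness. Age and population cannot be told apart from clock hour there either, so whether the LD difference needed light was not tested. Hour 26 against hour 46 of DD gave 0 calls in limma and 1613 probe sets at the unadjusted threshold (10.1%). The DD, control and WC shares rest on the same 15989 probe sets, which were chosen on the LD arrays. Setting these shares beside the LD share therefore does not compare the conditions evenly. The difference of the steps, LD minus DD, gave 0 calls, with 1071 probe sets (6.7%) at the unadjusted threshold. Across the 15989 probe sets the LD and DD steps correlated at r = 0.43 and had the same sign in 68.1%. They had no arrays in common, but series numbers 4 and 6 were in both. Whether scores were centred over both days, which would tie these steps, is not known. Of the 1745 probe sets higher at LD hour 2, 82.1% were also higher at DD hour 26, with a median DD difference of 0.57 beside 1.69 in LD. Of the 1979 lower ones, 14.7% were higher at DD hour 26, and over all 15989 the share was 47%. The cell cycle list had a DD median of -0.67 beside -0.74 in LD, and the muscle list 0.58 beside 1.24. The transthyretin-related list had 0.05 beside 1.00 and the oocyte list -0.09 beside -0.87. These gaps between lists were not tested.

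Among the called genes the DD steps of spig-16 and fmo-1 were 2.73 (SE 1.11) and 2.72 (SE 1.63), beside LD steps of 8.94 and 5.62. ZK899.1 had a DD step of -0.61 (SE 0.93), C51E3.6 of 1.41 (SE 0.64) and B0212.3 of -2.14 (SE 0.95). No DD step passed, and none of the 5 genes passed the test of LD against DD.

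Never-entrained controls gave 0 calls between hours 2 and 22, with 348 probe sets at the unadjusted threshold (2.18%) from only 2 series. The LD and control steps correlated at r = 0.05. The test of the LD step minus the control step called 6 probe sets (0.0375%), with 8.64% at the unadjusted threshold, and none of these was among the 5 genes above. In these 6 the LD steps were between -0.09 and 0.27 and the control steps between -5.63 and -1.70.

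Across lights off, hour 14 against hour 10, 0 probe sets were called and 699 met the unadjusted threshold (4.37%). The step of hour 2 minus hour 22 and that of hour 14 minus hour 10, which share no array, correlated at r = -0.48. They had the same sign in 33% of probe sets. Scores were set against the mean of their time series, which can tie hours of 1 series to each other. Over the LD hours alone scores need not average 0, and in spig-16 only the mean at hour 22 was negative (-0.14). The difference of the 2 steps gave 0 calls and 3372 probe sets (21.1%) at the unadjusted threshold (lowest adjusted p = 0.0705 in limma).

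Warming was read from hour 2 against hour 22 of WC. The WC step alone called 0 probe sets, and 2353 met the unadjusted threshold (14.7%). Across probe sets the LD and WC steps correlated at r = -0.07. The LD step minus the WC step called 228 probe sets (1.43%), 167 with the LD step higher and 61 with it lower, and 18.9% met the unadjusted threshold. The count was between 6 and 743 when 1 series was left out, lowest without WC series 2 and highest without WC series 1. It was 26, 444 and 32 without LD series 3, 4 and 6, and 22 and 7 without WC series 3 and 4. The genes fmo-1 and ZK899.1 were among the 228, with WC steps of 0.49 (SE 0.77) and -0.11 (SE 0.47). In spig-16 the WC step was 2.44 (SE 1.17).

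**Figure D5:**
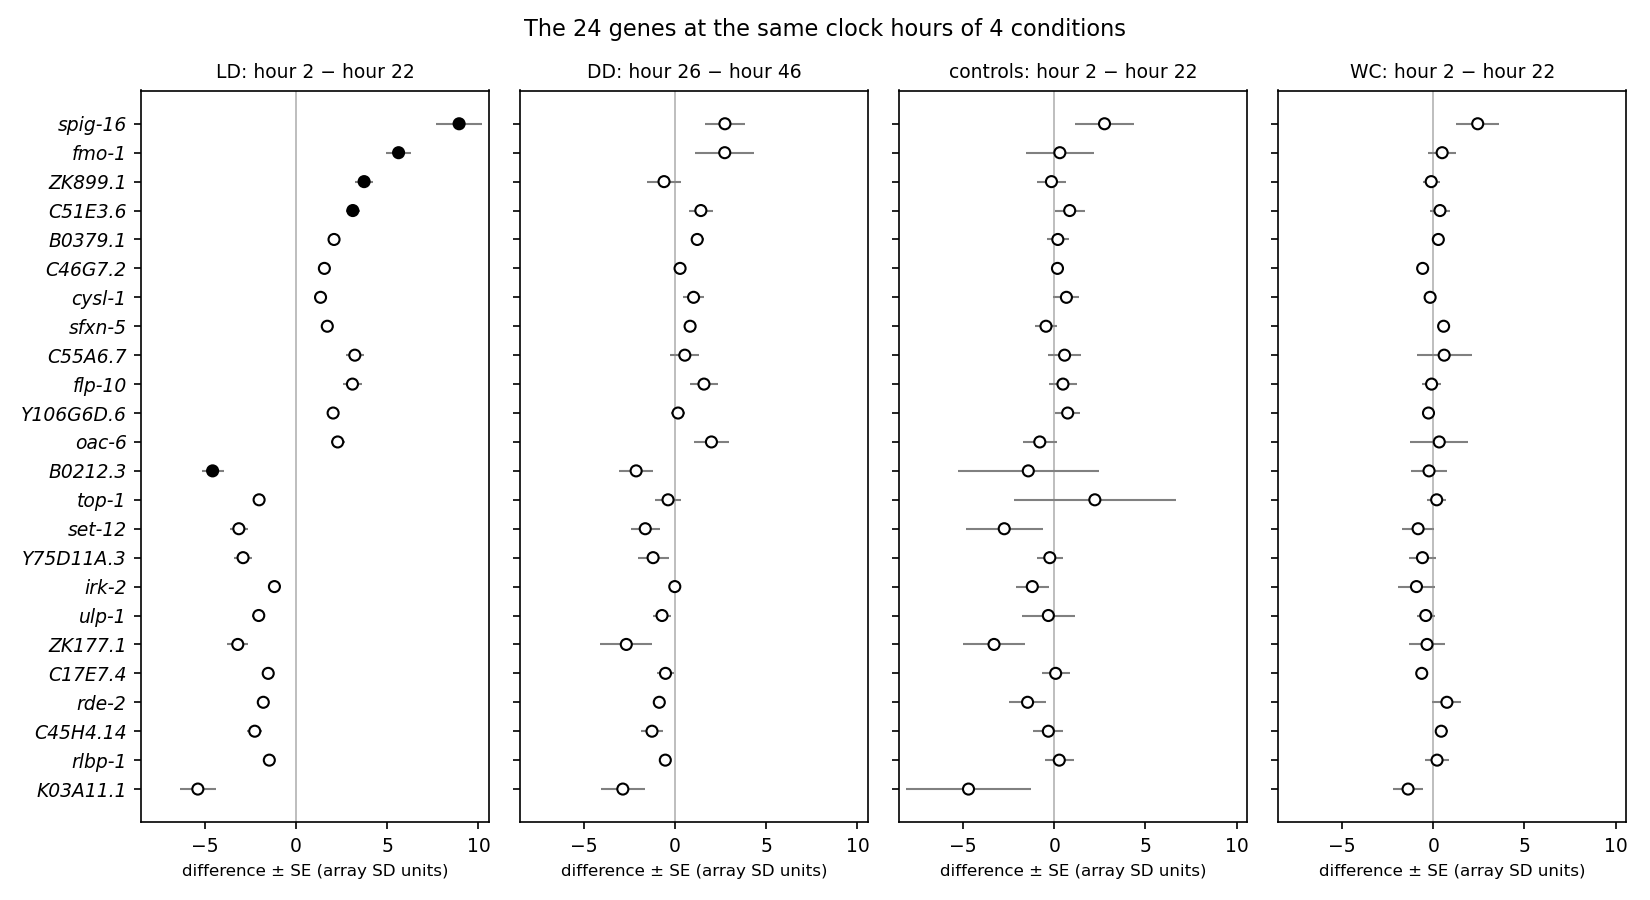
Differences (x axis, array SD units, ± SE) of the 24 genes named for the LD comparison, at the same clock hours of LD, DD, non-entrained controls and WC. Filled points passed an adjusted p of 0.05, all of them in LD, where spig-16 is at 8.94 and B0212.3 at -4.58.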

How the data were processed

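RNA of whole adults was hybridised to Affymetrix C. elegans arrays. Per the study's methods, probe signals were summarised by the authors as log2 expression (GCRMA, R 2.7.1), set against the mean of each time series and standardised within each array. The deposited values are such scores, 1 per probe set and array. Their depth is unknown, and the number of arrays limits the precision.

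From the scores, 77 array controls were left out. A probe set was kept where its root-mean-square distance from the array's bulk value (the median of the densest 5% of scores) was at least 0.1 over the 18 LD arrays. limma 3.58.1 in R 4.3.3 was fitted with hour and series. Labels number the series, and equal numbers within a condition were taken as 1 experiment. Equal numbers in different conditions had separate terms in the fits. The correlation of deviations from the hour means, hour 2 with hour 22 of the same series, was -0.15, 0.13 and -0.09 in series 3, 4 and 6. Replicates are independent time series. Probe sets were named through the platform annotation and a RefSeq table. Of 22548, 20766 had 1 gene symbol, 887 several and 895 none. Named genes were the 12 of largest difference per direction among calls, filled by lowest p where fewer passed, plus up to 4 of lowest p per list. The members and the 36 lists were chosen with earlier results of these data known. The fit was tested on simulated data. Alternatives were the filter, block, centring, quantile normalization, array weights, robust variance, arrays or series left out, and unique probe sets. Sequences were not used here.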

Additional observations from a re-analysis of the deposited data

Results flagged for a closer look

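Results in this part are differences between the LD step (hour 2 minus hour 22) and the step at the same hours of another condition that passed an adjusted p of 0.05 in limma. Against the non-entrained controls 6 probe sets differed, and against WC 228 differed. The control steps rest on 2 series, and the count of 6 became 222 without control series 4 and 1015 without control series 6.

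Differences against WC passed for 7 of the 24 genes named for the LD comparison, beside 1.43% of all probe sets. The 24 were chosen by the LD step, which is part of this difference, so that the choice itself raises the count. The differences were 5.13 for fmo-1 (SE 1.16, adjusted p = 0.0304), 3.84 for ZK899.1 (SE 0.74, adjusted p = 0.014), 2.14 for C46G7.2, 1.51 for cysl-1, 3.18 for flp-10, 2.29 for Y106G6D.6 and -2.71 for C45H4.14.

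Of each list described, only the up to 4 members of lowest p in LD were examined here, and other members are among the 228. Among those examined, the difference was largest for the acyl-CoA oxidase gene acox-1.6, at 7.71 (SE 1.53, adjusted p = 0.0165), with an LD step of 3.61 and a WC step of -4.10. The receptor gene nhr-133 had 6.36 (SE 1.24, adjusted p = 0.014), with an LD step of 5.03 and a WC step of -1.33. Other such members with the LD step above the WC step were ttr-27 at 3.81, pes-8 at 3.80, zip-10 at 3.69, pqm-1 at 3.23, nlp-7 at 2.86, gst-20 at 2.09 and cpn-3 at 1.48. Those with the LD step below the WC step were the DnaJ-type genes dnj-22 at -4.78 and dnj-17 at -3.45 and the base excision repair gene nth-1 at -4.28. In these last 3 the LD steps were -3.07, -1.93 and -2.28, and the WC steps were 1.71, 1.51 and 2.01.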

How the results depend on the processing

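The 5 calls of hour 2 minus hour 22 became 0 without the filter on low scores, 0 with no replicate block, 0 from the 6 arrays alone with the block, 0 without the arrays labelled as 2 biological replicates, 3 with unique probe sets and 12 with array weights, and 0 to 1 without 1 series. They stayed at 5 with the stricter filter and after re-centring. At an unadjusted p of 0.05, unique probe sets gave 1139 higher and 1034 lower of the 10173 tested. For the LD minus DD step there were 0 to 5 calls without 1 series. The 6 calls of the LD minus control step became 0 with the stricter filter, 3 with robust variance, 2 in series 4 and 6 alone and 1 to 1015 without 1 series. For lights on minus lights off, array weights gave 189 calls in place of 0, and leaving out 1 series gave 0 to 3. The 228 calls of the LD minus WC step became 78 without the filter, 376 with no replicate block, 134 after re-centring, 112 with quantile normalization, 859 with array weights and 6 to 743 without 1 series. The estimate of array weights stopped before reaching its tolerance in the fits with DD and controls. The cause of these shifts was not tested. Over the genes named, 1427 values kept their direction and side of the threshold, 9 newly passed, 37 no longer passed and 1 reversed, in gcy-19, which lay between -1.27 and 0.07 without 1 series, turning sign without series 3. With 3 arrays a side and no transcript levels, small differences were not detectable.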

Other observations

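Several housekeeping lists had medians near 0 in the comparison of hour 2 with hour 22. Ribosomal protein genes had a median difference of -0.02, with 1 of 67 higher and 0 lower at an unadjusted p of 0.05, and proteasome genes had -0.22, with 0 of 20 higher and 1 lower. Respiratory chain and ATP synthase genes had 0.14, with 5 of 66 higher and 3 lower, and 2 and 8 were higher without series 4 and 6. F-box and MATH-BTB genes, a large and variable group in nematodes, had -0.03, with 28 of 290 higher and 19 lower. Without series 3 these counts were 15 and 29, and without series 6 they were 28 and 6. Translation factors and tRNA synthetases had -0.17, with 0 of 69 higher and 5 lower, and 2 were lower without series 6. The 3 vitellogenin genes that passed the filter on the bulk value had a median of 0.09, and 0 met the unadjusted threshold in either direction.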
